A study of Mus musculus with 6 samples.

Results

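Forkhead transcription factors were followed in 3 mesenchymal cell populations that were sorted by flow cytometry from mouse back skin at postnatal day 16, the time at which hair follicles begin to regress (early catagen). Dermal sheath cells (DS) line the outside of the follicle, dermal papilla cells (DP) form its signalling centre at the base, and dermal fibroblasts (DF) occupy the dermis between follicles. All 3 groups came from female CD1 mice, an outbred strain, and the labels give no genotype, transgene or treatment. There were 2 biological replicates per population, or 6 RNA sequencing libraries, and the sort markers were not stated in the labels. The forkhead genes were those listed under a symbol made of Fox, a subfamily letter from a to s and a number, which took in 45 of the 24529 genes of the table.

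Forkhead factors bind DNA through a shared winged-helix domain and are grouped into lettered subfamilies by the sequence of that domain. FoxO factors are held in the cytoplasm when growth factors activate the kinase AKT, and otherwise switch on genes of growth arrest, stress resistance and autophagy. FoxP factors mostly repress transcription, FoxD and FoxF factors pattern embryonic mesenchyme, and FoxM1 drives mitotic genes. In skin, Foxn1 is the gene mutated in nude mice and acts in keratinocytes, while Foxp1 and Foxc1 are known for holding follicle stem cells in quiescence.

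Values are given as RPKM, by its usual meaning reads scaled to transcript length and library size. The unit is taken from the name of the authors' deposited table, and how it was computed was not stated. They were compared as log2(RPKM + 1), so each difference below is on that scale and understates the change of a gene with low RPKM. Every log2 difference has its standard error (SE) from limma, and a gene was called at a limma adjusted p under 0.05 with an absolute difference of at least 1. Relative depth, estimated from low values, ran from 0.39 to 0.47 in DS, 0.5 to 0.63 in DP and 0.71 to 1 in DF. Over the 14664 tested genes the median difference DS minus DF was 0.53, that of DP minus DF 0.71 and that of DS minus DP -0.17. Where median-ratio scaling, which brings these medians to -0.01, 0.02 and -0.01, changed a call, that is said beside the gene. Sums of markers followed the labels, but the lists were chosen with earlier results of these data known and are no independent check. The 12 sheath markers summed to 5261 and 5448 RPKM in DS, against 110 and 122 in DP and 102 and 128 in DF. The 12 papilla markers summed to 696 and 674 RPKM in DS, 4632 and 5307 in DP and 236 and 294 in DF. The 12 fibroblast markers summed to 3561 and 3694 RPKM in DS, 1704 and 1719 in DP and 83178 and 72885 in DF. The largest parts of the DF sum were Col1a1, Col3a1 and Col1a2, with DF means of 32800.9, 20724.5 and 17151.4 RPKM. Single markers departed from these sums. By mean, the papilla marker Corin was highest in DS (524 RPKM, 214 in DP) and Vcan in DF (159 RPKM, 141 in DP). The fibroblast marker Dpp4 was highest in DP (208 RPKM, 71.9 in DF) and Pdgfra in DS (591 RPKM, 110 in DF). The other listed markers had their highest mean in the population of their list.

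Of the 45 forkhead genes, 20 passed the filter of 1 RPKM in 2 or more libraries, 18 were above 0 somewhere but never reached 1 RPKM, and 7 were listed at 0 throughout. Foxd2 reached 1 RPKM only in DS, and Foxf2 and Foxp3 only in DP, so the filter admitted these 3 genes through the population in which they were highest. A few broadly expressed genes made up most of the forkhead signal. The 5 highest genes held 62.1% and 62% of the summed forkhead RPKM in the DS libraries, 72% and 75.3% in DP and 61.8% and 65.2% in DF. These were Foxn3, Foxp1, Foxp4, Foxo1 and Foxj3 in DS, Foxo3, Foxn3, Foxp1, Foxk1 and Foxj3 in DP, and Foxn3, Foxo3, Foxj3, Foxo1 and Foxp1 in DF. The summed forkhead RPKM was 373 and 400 in DS, 569 and 545 in DP and 216 and 276 in DF.

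**Figure D1:**
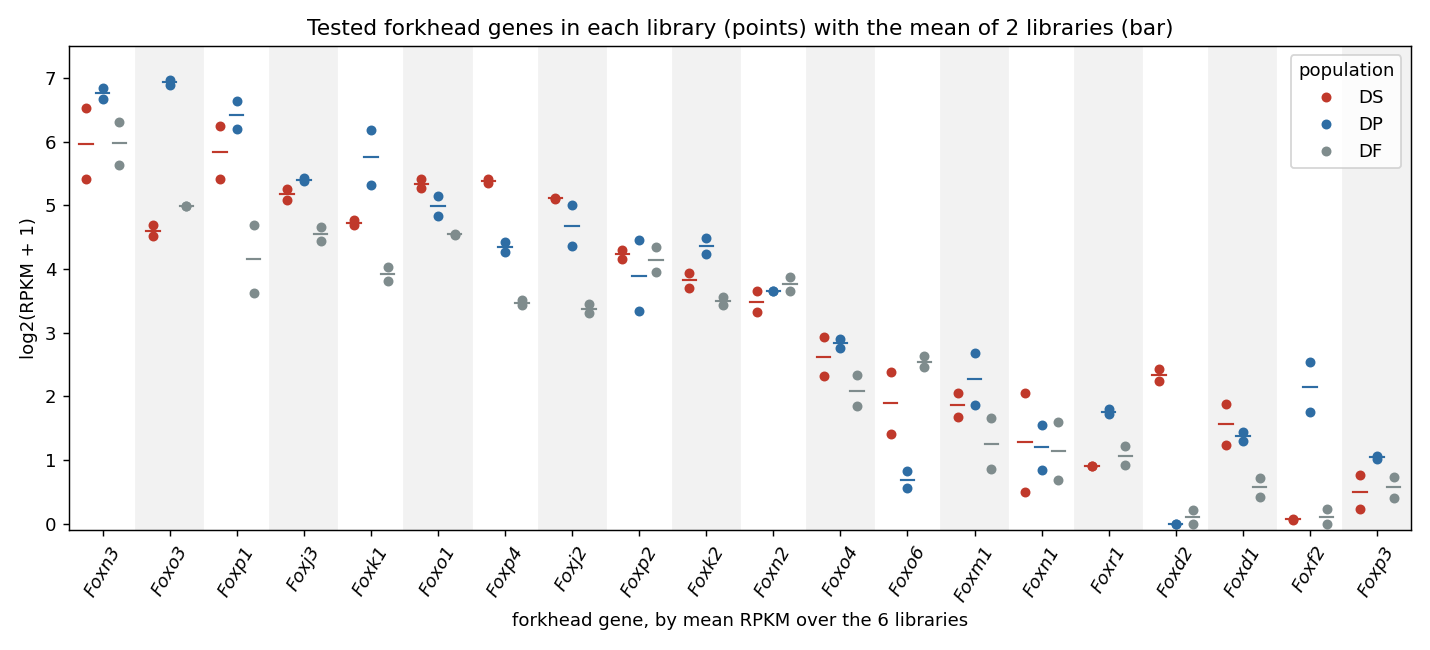
Level of each of the 20 tested forkhead genes as log2(RPKM + 1), ordered by mean RPKM over the 6 libraries; points are single libraries and bars the mean of the 2 libraries of DS, DP or DF. The DP points of Foxo3 and Foxf2 and the DS points of Foxp4 and Foxd2 stand above those of both other populations.

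Some forkhead genes were highest in the sheath and others in the papilla. Foxd2 and Foxp4 were called higher in DS than in both other populations, and Foxo3, Foxf2 and Foxk1 were called higher in DP than in both others. That is 2 of 20 tested forkhead genes for DS, where 6.03% of all tested genes were so called, and 3 of 20 for DP, where the share was 10.1%. With 20 genes both counts stood near these shares. They include Foxd2 and Foxf2, which the filter admitted only through DS and DP respectively. No forkhead gene was called higher in DF than in both others in the limma fit, nor at an unadjusted p under 0.05 (3.41% of all tested genes were called), and Foxo6 was called lower in DP than in both others (3% of all tested genes were). With median-ratio scaling Foxk1 lost its call against DS, and the other 5 genes kept theirs. Under that scaling 4.65% of all tested genes were called higher in DS than in both others, 5.77% higher in DP and 5.21% lower in DP.

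Between DS and DF, Foxd2, Foxp4, Foxj2 and Foxp1 were higher in DS, which is 4 of 20 tested forkhead genes beside 20.6% of all tested genes. None was called lower in DS by limma, with 1 lower at an unadjusted p under 0.05, beside 5.95% of all tested genes. After median-ratio scaling 3 calls were higher and 1, Foxo3, was lower, beside 7.77% and 10.2% of all tested genes. The median difference of the 20 genes was 0.43, near the 0.53 of all tested genes, so the family as a whole stood close to the background in this comparison.

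Between DP and DF, Foxp1, Foxf2, Foxo3, Foxk1 and Foxj2 were higher in DP and Foxo6 was lower. That is 5 and 1 of 20, beside 31.5% and 6.87% of all tested genes, or 38.3% in either direction. After median-ratio scaling 4 of these calls were higher and 1 lower, beside 9.36% and 13.1%, or 22.4% in either direction. The median difference was 0.79 for the forkhead genes and 0.71 for all tested genes.

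Between DS and DP the calls ran both ways. Foxd2, Foxo6 and Foxp4 were higher in DS and Foxo3, Foxf2 and Foxk1 were lower in DS, which is 3 and 3 of 20, beside 9.42% and 12.8% of all tested genes. After median-ratio scaling 3 calls were higher and 2 lower, beside 11.2% and 10.1%. The median difference was -0.22 for the forkhead genes and -0.17 for all tested genes. Of the 20 forkhead genes, 8 were called in at least 1 of the 3 comparisons, or 40%, against 52.5% of all tested genes. After median-ratio scaling it was again 8, against 34.4% of all tested genes. The forkhead share was thus below that of all tested genes on the deposited scale and above it on the other. As 1 of 20 genes is 5%, both gaps rest on few genes. The comparisons share libraries, and with 2 libraries against 2 the smallest two-sided p of an exact permutation test is 0.333, so the p-values depend on the variance moderation of limma.

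**Figure D2:**
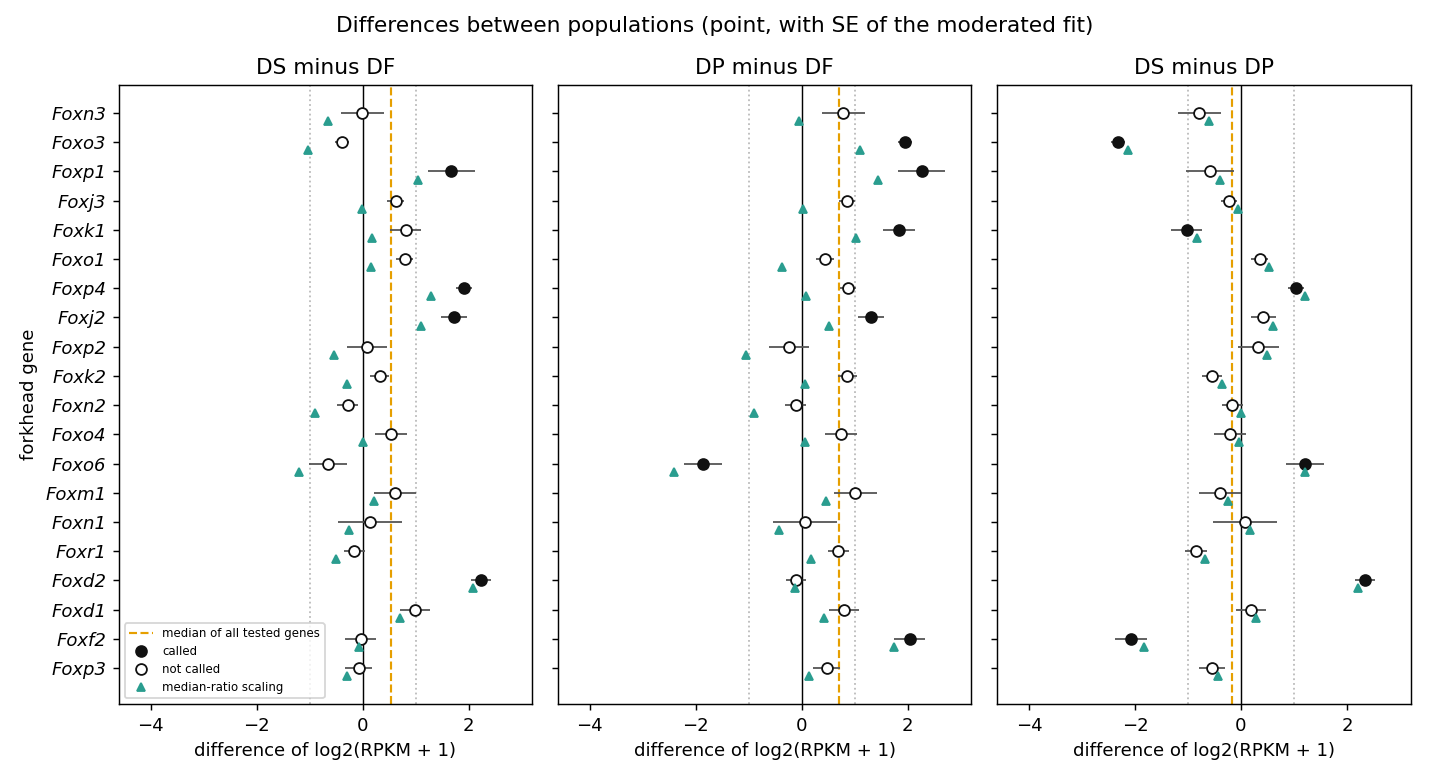
Difference of log2(RPKM + 1) for the 20 tested forkhead genes in the 3 comparisons, with the SE of the moderated fit; filled points are called, dotted lines mark differences of -1 and 1, the dashed line is the median over all tested genes, and triangles show the same difference after median-ratio scaling. Foxo3 stands at 1.94 in the DP minus DF panel and at -2.32 in that of DS minus DP, and most triangles in the first and second panels lie left of their points.

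Among the FoxO genes, Foxo3 set the papilla apart. Foxo3 (gene ID 56484) had 22.0 and 24.7 RPKM in DS, 117 and 124 RPKM in DP and 30.6 and 30.8 RPKM in DF. Both DP libraries lay far above the other 4, which did not overlap between DS and DF. The difference was 1.94 for DP minus DF (SE 0.13, limma adjusted p = 0.000367) and -2.32 for DS minus DP (SE 0.13, limma adjusted p = 0.000208). In bulk RNA of sorted cells, more cells that express a gene and more RNA per cell cannot be told apart. Foxo3 made up 5.9% and 6.19% of the summed forkhead RPKM in DS, 20.6% and 22.8% in DP and 14.1% and 11.2% in DF, a share that does not depend on how the libraries are scaled. The difference of Foxo3 for DS minus DF was -0.38 (limma adjusted p = 0.0625), and it was called with median-ratio scaling at -1.03 (limma adjusted p = 0.00598, within a range over the alternatives up to 0.263).

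The other FoxO genes varied less between the follicle populations. Foxo1 (gene ID 56458), the member best known from insulin signalling, had 37.6 and 41.4 RPKM in DS, 34.3 and 27.4 RPKM in DP and 22.5 and 22.2 RPKM in DF. Both follicle populations lay above DF without overlap, but the difference of 0.79 for DS minus DF (SE 0.16, limma adjusted p = 0.0137) was under the fold minimum and fell to 0.15 with median-ratio scaling. Foxo4 ranged from 2.60 to 6.65 RPKM over the 6 libraries and was called in no comparison, with unadjusted p under 0.05 in none. Foxo6 (gene ID 329934), a FoxO gene described mainly in brain, was lowest in DP, where Foxo3 was highest. It had 1.66 and 4.22 RPKM in DS, 0.769 and 0.471 RPKM in DP and 4.5 and 5.22 RPKM in DF. The 2 DP libraries were the lowest, and the DS libraries spread widely between DP and DF. Its difference was -1.86 for DP minus DF (SE 0.36, limma adjusted p = 0.008) and 1.21 for DS minus DP (SE 0.36, limma adjusted p = 0.0499). The call of Foxo6 against DP in DS was at the threshold and ended without DF replicate 1 or 2, DP replicate 1 or 2, or DS replicate 2, with limma adjusted p from 0.0865 to 0.187 within a range over all alternatives from 0.0193. It also ended with no filter (limma adjusted p = 0.0822) and with only the 2 populations compared (limma adjusted p = 0.0846). Without DS replicate 2, Foxo6 was also called lower in DS than in DF, at -1.14 (limma adjusted p = 0.0457, within a range up to 0.673).

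Among the FoxP genes, Foxp1 and Foxp4 were higher in DS than in DF, and Foxp1 was higher in DP than in DF. The 4 FoxP genes summed to 134 and 100.5 RPKM in DS, 139 and 103 RPKM in DP and 36.4 and 54.5 RPKM in DF. Foxp4 (gene ID 74123) had 39.6 and 41.5 RPKM in DS, 18.2 and 20.4 RPKM in DP and 10.4 and 9.77 RPKM in DF. The replicates lay close together and the 3 populations did not overlap. The difference of Foxp4 was 1.91 for DS minus DF (SE 0.15, limma adjusted p = 0.000634) and 1.03 for DS minus DP (SE 0.15, limma adjusted p = 0.00491). Without DP replicate 1 the difference between DS and DP was 0.96, just under the fold minimum (limma adjusted p = 0.0361, within a range from 0.00416 to 0.0424). Between DP and DF it was 0.88 (limma adjusted p = 0.00564), and 0.08 with median-ratio scaling. Foxp4 made up 10.6% and 10.4% of the summed forkhead RPKM in DS, 3.21% and 3.74% in DP and 4.79% and 3.54% in DF.

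Foxp1 (gene ID 108655) had 75.1 and 41.5 RPKM in DS, 98.4 and 72.1 RPKM in DP and 11.3 and 24.8 RPKM in DF. Every follicle library was above both DF libraries, while DS and DP overlapped and the replicates of each population differed widely. The difference was 2.26 for DP minus DF (SE 0.45, limma adjusted p = 0.00872) and 1.68 for DS minus DF (SE 0.45, limma adjusted p = 0.0289). The DS minus DF call of Foxp1 ended with median-ratio scaling (1.04, limma adjusted p = 0.113) and without DF replicate 1 (1.14, adjusted p = 0.126), DS replicate 1 (1.26, adjusted p = 0.124), DP replicate 1 (adjusted p = 0.0558) or DP replicate 2 (adjusted p = 0.0559), within a range from 0.0245. It also ended with the same sum without the 100 highest genes (1.10, limma adjusted p = 0.115), no filter (0.05003) and only the 2 populations compared (0.0552). The DP minus DF call of Foxp1 ended without DP replicate 1 (2.04, limma adjusted p = 0.0557, within a range from 0.00837). Foxp2, known for its part in vocal learning circuits, had 18.7 and 16.8 RPKM in DS, 20.8 and 9.18 RPKM in DP and 14.4 and 19.2 RPKM in DF, and the populations overlapped. Foxp3, the factor of regulatory T cells, had 0.177 and 0.694 RPKM in DS, 1.03 and 1.09 RPKM in DP and 0.324 and 0.67 RPKM in DF and was not called. Beside it, 16 leukocyte markers summed to 20 and 15.7 RPKM in DS, 13.8 and 14.4 RPKM in DP and 33.3 and 51.3 RPKM in DF. The T cell marker Cd3e had 0.469 and 0 RPKM in DS, 1.08 and 0.715 RPKM in DP and 0.214 and 0.456 RPKM in DF. Cd4 had 0 and 0.297 RPKM in DS, 0.732 and 0.664 RPKM in DP and 0.33 and 0.694 RPKM in DF. Cd3e, like Foxp3, was thus highest in DP, whereas the leukocyte sum was highest in DF, and Ctla4 was listed at 0 in all but 1. The part of such cells in the Foxp3 values was not tested.

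Patterning genes of the FoxD and FoxF groups were low, with a different one in DS and in DP. Foxd2 (gene ID 17301), known from mesenchyme of the embryo and kidney, had 4.39 and 3.74 RPKM in DS, was listed at 0 in both DP libraries, and had 0 and 0.161 RPKM in DF. Only the DS libraries held more than a trace. On the log2(RPKM + 1) scale the difference of Foxd2 was 2.23 for DS minus DF (SE 0.19, limma adjusted p = 0.000835) and 2.34 for DS minus DP (SE 0.19, limma adjusted p = 0.000657). With a pseudocount of 0.1 RPKM these differences were 4.68 and 5.38, so their size rests on the pseudocount. Foxd2 passed the filter only through DS, so its adjusted p-values are no independent support that it is high there. Foxd2os (gene ID 100040736), the noncoding RNA gene annotated next to Foxd2, was named after its values were seen. Foxd2os had 21.5 and 19.7 RPKM in DS, 8.16 and 5.37 RPKM in DP and 3.56 and 5.98 RPKM in DF. Foxd2os was higher in DS than in DF by 1.94 (SE 0.29, limma adjusted p = 0.00511) and than in DP by 1.5 (SE 0.29, limma adjusted p = 0.0142). Unlike Foxd2, its RNA was thus well above 0 in all 6 libraries. Foxe3, a protein-coding forkhead neighbour of Foxd2, was listed at 0 throughout.

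Foxf2 (gene ID 14238), a hedgehog-responsive gene of gut and palate mesenchyme that is also known from brain pericytes, had 0.0589 and 0.0484 RPKM in DS, 2.38 and 4.81 RPKM in DP and 0 and 0.171 RPKM in DF. The 2 DP libraries differed by their own spread but lay far above the other 4. The difference of Foxf2 was 2.03 for DP minus DF (SE 0.30, limma adjusted p = 0.00356) and -2.07 for DS minus DP (SE 0.30, limma adjusted p = 0.00473), and 4.41 and -4.51 with a pseudocount of 0.1 RPKM. Foxf2 passed the filter only through DP, so its adjusted p-values are no independent support that it is high there. Beside it, 12 pericyte markers summed to 253 and 251 RPKM in DS, 217 and 205 RPKM in DP and 62.1 and 69.2 RPKM in DF. The defining pericyte marker Rgs5 had 10 and 1.33 RPKM in DS, 16.4 and 10.6 RPKM in DP and 1.3 and 0.813 RPKM in DF. By mean, Cspg4 was also highest in DP, at 46.4 RPKM in DS, 122 in DP and 2.6 in DF, and was called against both others. Heyl (1.63, 8.16 and 1.98 RPKM), Notch3 and Higd1b were highest in DP too. Mcam (105 RPKM in DS, 0.983 in DP), Pdgfrb (67.2 in DS, 48.4 in DP), Cox4i2 and Myh11 were highest in DS. Kcnj8, another pericyte marker, was highest in DF. It had 0.989 and 0 RPKM in DS, 6.24 and 1.42 RPKM in DP and 6.65 and 8.89 RPKM in DF. Abcc9 and Des also had their highest values in DF. The part of such cells in the Foxf2 values was not tested. The neighbours of Foxf2 on chromosome 13, Foxq1 and Foxc1, were not tested and stayed below 1 RPKM in every library, at most 0.878 and 0.497 RPKM. Foxf1, the closest paralogue of Foxf2, reached at most 0.474 RPKM. Foxd1 (gene ID 15229), known from kidney stroma, had 1.37 and 2.68 RPKM in DS, 1.72 and 1.46 RPKM in DP and 0.341 and 0.65 RPKM in DF. Every follicle library was above both DF libraries. The difference of Foxd1 for DS minus DF was 0.99 (SE 0.28, limma adjusted p = 0.034), just under the fold minimum. Foxd1 was called without DS replicate 1, at 1.31 (limma adjusted p = 0.0301), and with a pseudocount of 0.1 RPKM, at 1.81 (limma adjusted p = 0.0338); over the alternatives the adjusted p reached 0.144. With that pseudocount it was also called for DP minus DF, at 1.55 (limma adjusted p = 0.043, at most 0.266 over the alternatives).

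The upstream sequences of 4 genes that were highest in 1 follicle population are shown, Foxd2 and Foxp4 for DS and Foxo3 and Foxf2 for DP, to give the sequence context in which these transcripts start. Each is the 250 bases before the annotated start, 5′ to 3′ on the gene's strand, from RefSeq on GRCm38.p6, an earlier build than the GRCm39 of the submitters' processing notes. Capitals mark matches to the GC box GGGCGG on either strand.
Foxd2 (chr4:114908899-114909148, minus strand): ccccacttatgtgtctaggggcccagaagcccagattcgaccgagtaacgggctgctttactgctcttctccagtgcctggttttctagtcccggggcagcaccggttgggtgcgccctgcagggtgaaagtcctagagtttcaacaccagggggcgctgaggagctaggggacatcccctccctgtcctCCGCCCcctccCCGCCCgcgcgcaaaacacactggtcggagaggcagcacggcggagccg
Foxp4 (chr17:47924633-47924882, minus strand): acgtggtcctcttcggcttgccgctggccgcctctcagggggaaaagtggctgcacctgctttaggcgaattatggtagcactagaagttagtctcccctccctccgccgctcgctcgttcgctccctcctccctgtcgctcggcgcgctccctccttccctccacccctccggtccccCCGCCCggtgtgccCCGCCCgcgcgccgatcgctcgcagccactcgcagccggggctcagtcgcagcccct
Foxo3 (chr10:42276696-42276945, minus strand): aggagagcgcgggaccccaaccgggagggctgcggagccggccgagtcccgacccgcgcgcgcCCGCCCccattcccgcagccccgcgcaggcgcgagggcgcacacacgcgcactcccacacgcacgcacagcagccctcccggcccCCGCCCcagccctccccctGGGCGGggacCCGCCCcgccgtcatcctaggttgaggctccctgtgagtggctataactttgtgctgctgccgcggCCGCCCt
Foxf2 (chr13:31625566-31625815, plus strand): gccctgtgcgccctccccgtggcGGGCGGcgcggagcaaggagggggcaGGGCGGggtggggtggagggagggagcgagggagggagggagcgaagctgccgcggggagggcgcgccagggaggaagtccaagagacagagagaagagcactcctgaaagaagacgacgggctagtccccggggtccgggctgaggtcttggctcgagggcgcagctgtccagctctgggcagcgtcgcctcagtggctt
The GC box was found 2 times in Foxd2, 2 times in Foxp4, 5 times in Foxo3 and 2 times in Foxf2. In the same 250 bases none of the 4 held the forkhead motif GTAAACA, the TATA box TATAAA, the CCAAT box CCAAT or the E box CACGTG, each searched on both strands. Of the 45 forkhead genes, 29 had an entry, with 34 windows. GGGCGG was in 67.6% of these windows and in 32.7% of the 32851 windows of all genes, CCAAT in 44.1% and 33.8%, TATAAA in 8.82% and 12.4%, CACGTG in 2.94% and 6.02%, and GTAAACA in 2.94% and 3.17%. The forkhead windows held a median of 15.5 CG dinucleotides, against 6 in all windows. Foxd2 had 16, Foxp4 27, Foxo3 31 and Foxf2 21.

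Among the broadly expressed FoxJ, FoxK and FoxN genes, Foxj2 was higher in both follicle populations and Foxk1 was highest in the papilla. Foxj2 (gene ID 60611), an activator present in many tissues, had 33.2 and 33.8 RPKM in DS, 31.1 and 19.6 RPKM in DP and 8.94 and 9.89 RPKM in DF. The DF libraries were well below the other 4. The difference of Foxj2 was 1.73 for DS minus DF (SE 0.24, limma adjusted p = 0.00381) and 1.30 for DP minus DF (SE 0.24, limma adjusted p = 0.0071). The DP minus DF call of Foxj2 ended with median-ratio scaling (0.51, limma adjusted p = 0.153), with the same sum without the 100 highest genes (0.68, adjusted p = 0.068) and, by the fold minimum, without DP replicate 1 (0.98, adjusted p = 0.0255), within a range from 0.00646.

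Foxk1 (gene ID 17425), a repressor first studied in muscle precursors, had 24.7 and 26.3 RPKM in DS, 38.9 and 71.5 RPKM in DP and 13.0 and 15.3 RPKM in DF. The 3 populations did not overlap, although the DP libraries lay apart. The difference of Foxk1 was 1.84 for DP minus DF (SE 0.30, limma adjusted p = 0.00477) and -1.02 for DS minus DP (SE 0.30, limma adjusted p = 0.0476). The DS minus DP call of Foxk1 ended with median-ratio scaling (-0.84, limma adjusted p = 0.0756) and without DF replicate 1 or 2, DP replicate 2 (-0.59), or DS replicate 1 or 2, with adjusted p from 0.082 to 0.167 within a range from 0.0155. It also ended with a pseudocount of 0.1 RPKM (limma adjusted p = 0.0515), no filter (0.071), the same sum without the 100 highest genes (0.0501), eBayes without a trend (0.0555) and only the 2 populations compared (0.0811), so that 11 of 15 alternatives ended it. Foxk2, its paralogue, had 14.3 and 12.0 RPKM in DS, 21.4 and 17.8 RPKM in DP and 9.83 and 10.8 RPKM in DF, in the same order. Its difference of 0.86 for DP minus DF (SE 0.19, limma adjusted p = 0.0117) was under the fold minimum and was 0.07 with median-ratio scaling.

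Foxj3 had 37.4 and 32.7 RPKM in DS, 40.5 and 41.9 RPKM in DP and 20.7 and 24.2 RPKM in DF. Its differences of 0.62 for DS minus DF (limma adjusted p = 0.0237) and 0.85 for DP minus DF (limma adjusted p = 0.00679) were near the medians of all tested genes, and with median-ratio scaling were -0.02 and 0.03. Foxn3, a checkpoint suppressor and the highest forkhead gene in DS and DF, had 41.7 and 90.7 RPKM in DS, 114 and 101 RPKM in DP and 48.7 and 78.2 RPKM in DF. Its DS replicates spread around those of DF, both DP libraries lay above the other 4, and it was called in no comparison. Foxn2 ranged from 8.99 to 13.6 RPKM over all 6 libraries and was not called. Its differences of -0.28 for DS minus DF and -0.11 for DP minus DF were -0.90 and -0.90 with median-ratio scaling (limma adjusted p = 0.0147 and 0.0116, the lowest over the alternatives), still under the fold minimum. Foxr1, of which little is known in skin, had 0.88 and 0.887 RPKM in DS, 2.48 and 2.31 RPKM in DP and 0.898 and 1.32 RPKM in DF. Its difference for DS minus DP was -0.85 (limma adjusted p = 0.0253), under the fold minimum, and it was called with a pseudocount of 0.1 RPKM at -1.34 (limma adjusted p = 0.0427, and at most 0.103 over the alternatives).

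Foxm1 (gene ID 14235), the mitotic factor, was low everywhere. It had 2.22 and 3.17 RPKM in DS, 2.64 and 5.38 RPKM in DP and 0.816 and 2.15 RPKM in DF. The difference of Foxm1 for DP minus DF was 1.01 (SE 0.40) and was not called (limma adjusted p = 0.0741). Foxn1, the keratinocyte gene, had 0.414 and 3.17 RPKM in DS, 0.798 and 1.93 RPKM in DP and 2.04 and 0.604 RPKM in DF, so that replicates differed more than populations. Beside it, 17 keratinocyte markers summed to 74.8 and 211 RPKM in DS, 175 and 232 RPKM in DP and 110 and 100 RPKM in DF. Krt10, a keratin of differentiating epidermis, had 15.5 and 103 RPKM in DS, 30.7 and 8.97 RPKM in DP and 20.4 and 17.8 RPKM in DF, so the library with more Foxn1 had more Krt10 in DS and less in DP. Krt14, a keratin of basal epidermis, had 8.63 and 8.29 RPKM in DS, 15.2 and 27.7 RPKM in DP and 6.07 and 6.99 RPKM in DF. In DF, where Foxn1 also differed, the marker sums were close. Krt35, another of these markers, had 0.685 and 5.34 RPKM in DS, 7.74 and 14.8 RPKM in DP and 17.0 and 7.41 RPKM in DF. It was thus higher in the library with more Foxn1 in each population. Dlx3, Hoxc13, Dsg3 and Dsp had the same order, and the other markers of the 17 did not follow Foxn1 in all 3 populations. The part of keratinocytes in the Foxn1 values was not tested.

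The 25 untested genes include several with known roles in skin or in its blood vessels and nerves. Foxc1 reached at most 0.497 RPKM and its paralogue Foxc2, of lymphatic vessels, at most 0.649 RPKM. Foxe1, a gene of the follicle epithelium and thyroid, had 0.109 and 0.486 RPKM in DS, 0.669 and 0.64 RPKM in DP and 0.118 and 0.0618 RPKM in DF. Foxq1, the gene of the satin coat, was between 0.268 and 0.878 RPKM in all 6 libraries. Foxs1, known from sensory neurons and pericytes, reached at most 0.94 RPKM, and Foxd3, of neural crest, at most 0.203 RPKM. Foxl1, a neighbour of Foxc2 on chromosome 8, was the highest of the untested genes, at up to 0.96 RPKM in DP. Foxa1, Foxa2 and Foxa3, of endoderm, Foxj1, of ciliated cells, and Foxi3, of the early hair placode, each stayed at or below 0.2 RPKM. The 7 genes listed at 0 throughout were Foxb2, Foxe3, Foxh1, Foxi1, Foxi2, Foxl2 and Foxl3. Values this low were not tested, and at these depths do not show absence.

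Genes that act with forkhead factors were read from 5 lists, which were also chosen with earlier results of these data known. In the FoxO pathway, 26 regulators, from the IGF receptor to AKT and its binding partners, were all tested. Of these, 11 were higher and 1 lower in DS than in DF, beside 20.6% and 5.95% of all tested genes, with a median difference of 0.97 against 0.53 for all tested genes. Under median-ratio scaling 3 were higher and 1 lower, beside 7.77% and 10.2%. Pik3r1, a regulatory subunit of PI3-kinase, was lower in DS, at -1.17 against DF and -1.32 against DP. Between DP and DF, 14 regulators were higher and 0 lower in limma, with 1 lower at an unadjusted p under 0.05, beside 31.5% and 6.87% of all tested genes. Under median-ratio scaling it was 4 higher and 1 lower, beside 9.36% and 13.1%. Igf1r, the IGF1 receptor gene, had 29.5 and 29.7 RPKM in DS, 83.2 and 74.3 RPKM in DP and 12.4 and 17.1 RPKM in DF, a difference of 2.35 for DP minus DF (limma adjusted p = 0.000554). Inpp4b, a phosphoinositide phosphatase gene, was also higher in DP than in DF, at 2.37. Between DS and DP, limma called 2 regulators higher in DS and 3 lower, beside 9.42% and 12.8% of all tested genes. Median-ratio scaling made these counts 3 and 2, beside 11.2% and 10.1%.

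All 32 listed FoxO target genes were tested, one of which, Insr, is also on the regulator list. Against DF, 16 were higher and 2 lower in DS (11 and 2 with median-ratio scaling), and 21 were higher and 1 lower in DP (10 and 3). The shares of all tested genes were 20.6% higher and 5.95% lower in DS (7.77% and 10.2%) and 31.5% and 6.87% in DP (9.36% and 13.1%). Their median differences were 1.09 for DS minus DF and 1.38 for DP minus DF, against 0.53 and 0.71 for all tested genes. Between DS and DP the list split, with 6 higher and 7 lower in DS (8 and 6 after that scaling), at a median of 0.06. Of all tested genes 9.42% were higher and 12.8% lower in DS than in DP (11.2% and 10.1%), at a median of -0.17. Fbxo32, a ubiquitin ligase of muscle wasting, had 36.6 and 40.9 RPKM in DS, 42.7 and 37.8 RPKM in DP and 1.96 and 2.91 RPKM in DF. It was higher by 3.54 in DS and 3.60 in DP than in DF. Pdk4, which inhibits pyruvate dehydrogenase, was highest in DS, at 126 and 101 RPKM in DS, 6.12 and 6.35 RPKM in DP and 1.75 and 1.58 RPKM in DF. Its difference for DS minus DP was 3.98 (limma adjusted p = 0.000114). Klf15 and Trib1 went the other way between DS and DP, at -3.42 and -3.12. Sesn3, a stress-induced regulator of mTORC1, was higher than in DF by 2.43 in DS and 2.69 in DP. These genes have other regulators too, and their counts do not measure FoxO activity.

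Of 19 partners of FoxP factors, all tested, 10 were higher in DP than in DF (2 with median-ratio scaling), with 0 lower in limma and 0 at an unadjusted p under 0.05, and 4 were higher and 1 lower in DS than in DF (1 and 1). Of all tested genes 31.5% were higher in DP (9.36% with that scaling) and 20.6% higher in DS (7.77%). Background shares called lower stood at 6.87% in DP and 5.95% in DS, or 13.1% and 10.2% once scaled. The scaling also put 1 partner lower in DP. In the upward direction the scaled list thus stood near the background. Downward it held 1 partner in each comparison, too few to read against those shares. Runx1, a transcription factor that binds with FoxP3 in T cells, had 128 and 145 RPKM in DS, 97.4 and 99.6 RPKM in DP and 5.29 and 6.03 RPKM in DF. Its difference was 4.36 for DS minus DF and 3.90 for DP minus DF (limma adjusted p = 7.07e-05 and 9.86e-05). Between DS and DP, 0 were called higher in DS in limma, with 3 higher at an unadjusted p under 0.05, and 2 were lower, among them Nfatc4 at -1.22. Of all tested genes 9.42% were called higher and 12.8% lower there. With median-ratio scaling the counts were 0 and 1, beside 11.2% and 10.1%.

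Hedgehog genes, which act upstream of Foxf genes in gut mesenchyme, were mostly higher in DP. Of 11 tested of 14, 9 were higher and 1 lower in DP than in DF (7 and 1 after median-ratio scaling), and their median difference was 2.74 against 0.71 for all tested genes. Of all tested genes 31.5% were higher and 6.87% lower there (9.36% and 13.1%). In DS, 4 were higher and 2 lower than in DF (2 and 4), beside 20.6% and 5.95% of all tested genes (7.77% and 10.2%). Against DP, 1 was higher and 6 lower in DS (1 and 6), beside 9.42% and 12.8% (11.2% and 10.1%). Gli1, a target and effector of the pathway, had 27.0 and 26.9 RPKM in DS, 53.5 and 47.9 RPKM in DP and 1.16 and 3.66 RPKM in DF. Hhip, a hedgehog inhibitor that is also on the papilla marker list, had 0.959 and 0.0816 RPKM in DS, 151 and 171 RPKM in DP and 4.89 and 8.03 RPKM in DF. Gli1 was thus above DF in both follicle populations. Hhip, like Foxf2, was high only in DP, with a difference of -6.80 for DS minus DP (limma adjusted p = 0.000159). Cdon ran the other way and was the 1 listed gene called lower in DP than in DF. Its mean was 25.5 RPKM in DF, 7.74 in DS and 0.346 in DP. Set against DF, Cdon in DP differed by -4.30, whereas DS exceeded DP by 2.70. Whether hedgehog signalling bears on Foxf2 here was not tested.

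FoxM1 target genes were compared in the same way. Of 14 tested of 24, 3 were higher in DS than in DF and 2 in DP than in DF, with 0 lower in limma and 0 lower at an unadjusted p under 0.05 in either comparison. With median-ratio scaling the counts were 0 higher and 0 lower for DS minus DF and 1 higher and 1 lower for DP minus DF. Of all tested genes 20.6% were higher in DS than in DF and 31.5% in DP than in DF (7.77% and 9.36% with that scaling). The shares called lower were 5.95% and 6.87% (10.2% and 13.1%). Between DS and DP, 1 target gene was higher and 1 lower in DS on both scales. Beside this, 9.42% and 12.8% of all tested genes were so called (11.2% and 10.1%). The medians against DF, 0.56 in DS and 0.60 in DP, lay beside 0.53 and 0.71 for all tested genes. Cenpa, the centromeric histone gene, stood out in DP with 3.04 and 1.25 RPKM in DS, 17.0 and 17.9 RPKM in DP and 0.857 and 0.87 RPKM in DF (3.31 for DP minus DF, limma adjusted p = 0.000925).

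**Figure D3:**
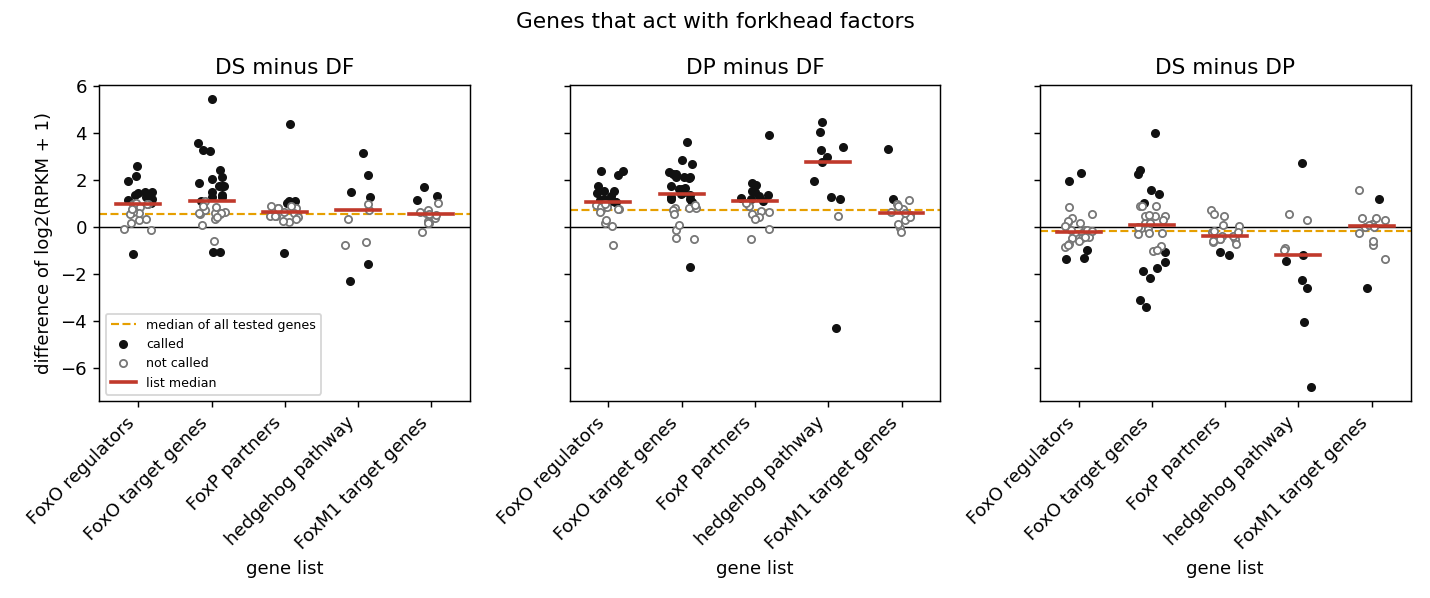
Difference of log2(RPKM + 1) for the tested genes of 5 lists in the 3 comparisons; each point is a gene, filled where called, the red bar is the list median and the dashed line the median over all tested genes. The hedgehog median lies at 2.74 in the DP minus DF panel and at -1.19 in that of DS minus DP, while the FoxM1 target medians lie near the dashed line.

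As a description over the 6 libraries, the tested forkhead gene whose log2(RPKM + 1) most resembled that of each called gene was sought by Pearson's r. Foxo3 was most like Foxr1 (r = 0.971), Foxf2 most like Foxo3 (r = 0.967) and Foxk1 most like Foxf2 (r = 0.894), all of them genes with their highest values in DP. Foxd2 was most like Foxp4 (r = 0.862), the other gene highest in DS. Foxp1 was most like Foxj3 (r = 0.974), Foxj2 most like Foxo1 (r = 0.969) and Foxp4 most like Foxo1 (r = 0.936), genes lowest in DF. Foxo6 had no close match, with its highest r of 0.391 to Foxn2 and its lowest of -0.932 to Foxk2. The 6 points share population, depth and scaling, so these values describe the pattern over 3 populations and no more.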

How the data were processed

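Gene-level RPKM values, made and deposited by the authors in 1 table with a column per library, were analysed for 2 libraries each of DS, DP and DF. Per the labels' protocols, RNA of sorted cells was amplified with a NuGEN Ovation system before library construction. GRCm39, Salmon 1.9.0 and DESeq2 1.28.1 are listed, without a role or order, in the submitters' processing notes. No source used here gives annotation, filters or read totals, so no counting interval was set. Amplification can distort low values. Mir6236 alone held 46.6% to 77.1% of the summed RPKM, which is not its share of reads, as RPKM is scaled to transcript length. Whether a few very high genes set the scale was not tested.

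Genes that reached 1 RPKM in 2 or more libraries were tested on log2(RPKM + 1) in limma 3.58.1 under R 4.3.3. The fit held a mean per population over all 6 libraries, with eBayes and a trend; residual degrees of freedom were 3 and prior ones 2.62. All p-values are two-sided and were adjusted by Benjamini-Hochberg over the 14664 tested genes of each comparison. Relative depth was taken from the most frequent ratio of values under 1 RPKM to DF replicate 2. The procedure was tested on simulated data. All forkhead genes could be named, and from each list up to 4 called genes with the largest difference per comparison. Some genes that this rule names are not reported here. The forkhead genes and the lists were chosen with earlier results of these data known. Alternatives were a pseudocount of 0.1 RPKM, no filter, a filter at 5 RPKM, median-ratio scaling, the same sum without the 100 highest genes, eBayes without a trend, only the 2 populations compared, a replicate block, no fold minimum, and leaving out each library.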

Additional observations from a re-analysis of the deposited data

How the results depend on the processing

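Of 60 differences of tested forkhead genes, 16 were called, and 0 of these changed sign in any of the 15 alternatives. Of 28 that passed an adjusted p under 0.05 or were called in an alternative, Foxj3 for DS minus DF alone reversed, at -0.0195 with median-ratio scaling. Of the other 32, 16 changed sign in at least 1 alternative.

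The filter at 5 RPKM left 12 forkhead genes, with 0 lower for DP minus DF and 1 higher for DS minus DP, since Foxd2, Foxf2 and Foxo6 were no longer tested. Over all genes tested under that filter, 825 were lower for DP minus DF and 1187 higher for DS minus DP. With median-ratio scaling 1 forkhead gene was lower for DS minus DF. Over all tested genes that scaling gave 1139 higher and 1495 lower for DS minus DF and 1373 higher and 1914 lower for DP minus DF. The same sum without the 100 highest genes gave 1203 and 1395, and 1714 and 1655. Without a fold minimum 7 forkhead genes and 5405 of all tested genes were higher for DS minus DF, and 9 and 7273 for DP minus DF. Leaving out each library ended or added the forkhead calls named beside the genes above.

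The labels do not say whether same-numbered libraries share animals or a sort. The deviations of same-numbered libraries correlated at -0.0463 for DF and DP, -0.0714 for DF and DS and -0.0335 for DP and DS. Such values cannot settle it. With the replicate block 3 forkhead genes were higher in DS than in DF, 6 in DP than in DF and 2 in DS than in DP. Over all tested genes 2978, 4583 and 1361 were higher. The forkhead counts lower, 0, 1 and 3, were the same as in the fit without the block. Under it Foxp1 for DS minus DF (limma adjusted p = 0.0519) and Foxo6 for DS minus DP (0.0675) were not called, and Foxm1 for DP minus DF was (1.01, 0.0224).

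Differences of genes under about 1 RPKM are limited by depth and by the pseudocount, and differences against DF by the scaling, which moved that of Foxp4 for DP minus DF to 0.08 (0.88 as deposited).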
